A study of Homo sapiens with 4 samples.

Results

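BAX, BCL2L1, CYCS and PARP1 encode proteins of mitochondria-dependent apoptosis, and they are described here as mRNAs in 2 gastric cancer (GC) cell lines with and without isorhamnetin (ISO), a flavonoid. They are 4 of the 2897 genes in the deposited table and were chosen by name. The study had assayed their proteins or close relatives of them. RNA was sequenced in 4 libraries, which were untreated AGS-1 (labelled AGS in its cell line field), AGS-1 with ISO, untreated HGC-27 and HGC-27 with ISO. The labels give 50 μM ISO for 24 h and a wild-type genotype for all cultures, and the text of the study names a lower dose for the sequenced cells. Both are established human lines grown as bulk cultures, and each condition of a line had 1 library, so no spread between cultures can be measured. The text of the study speaks of duplicates, and whether a library stands for a single culture or a pool is not given in the sources used here. A lower level can be fewer cells with the mRNA or less mRNA per cell, which bulk RNA cannot tell apart.

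In mitochondria-dependent apoptosis, proteins of the BCL-2 family decide whether the outer mitochondrial membrane is opened. BAX, once activated, forms pores in that membrane, and Bcl-xL, the main protein of BCL2L1, holds BAX and its activators in check. Cytochrome c, encoded by CYCS, carries electrons in the respiratory chain, and after its release it binds APAF1 and leads to the activation of caspase-9 and caspase-3. PARP1, a nuclear sensor of DNA breaks, is cleaved by caspase-3. The step that sets off the pathway acts on proteins, and the values below are mRNA levels only.

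Levels are given in FPKM, fragments scaled to the length of the gene and to the depth of the library. Multiplied by gene length, the FPKM values were whole multiples of 1 step in each library, within 0.05, for 100% of values, which gives back the fragments of each gene. The libraries held between 15235004 and 20199425 fragments. Intervals are 95% intervals of these fragments and cover counting error only. The share of fragments that fell in the 2897 genes was 78.5% for untreated AGS-1, 64.4% for AGS-1 with ISO, and 61.0% and 60.0% for HGC-27. The median log2 ratio between ISO and control over these genes was −0.29 (AGS-1) and −0.11 (HGC-27). After median-of-ratios scaling these medians were −0.02 and −0.05. After upper-quartile scaling they were 0.09 and 0.03. Changes are therefore also given relative to the median of all genes. Of 10 epithelial markers, 7 could be measured, and they summed to 2197 and 1416 FPKM in AGS-1 but to 5.86 and 4.54 FPKM in HGC-27, where KRT19 was at 0. The 4 measured of 8 mesenchymal markers (VIM, TWIST1, SPARC and COL1A1) summed to 10.4 and 7.68 FPKM in AGS-1, with TWIST1 at 0 in both libraries and SPARC at 0 with ISO, and to 1082 and 796 FPKM in HGC-27. The only leukocyte or endothelial marker of 6 that was measured, LYZ, which gastric epithelium also makes, had 594 and 314 FPKM in AGS-1 and 0 in HGC-27. HGC-27 thus had low levels of the 7 measured epithelial markers, which does not test its carcinoma label. The epithelial sum in AGS-1 was lower with ISO, as were several values below, and its part in them was not tested.

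The promoter sequences of BAX and BCL2L1 are shown because the ratio of these mRNAs was higher with ISO in both lines. BCL2L1 itself was lower with ISO in both lines, as 56.0% of all genes were. The sequences come from RefSeq on GRCh38, read 5′ to 3′ on the strand of the gene. They end at the base before the gene in the deposited table. Capitals mark E-boxes (CACGTG, its own reverse complement).
BAX, chr19:48954625-48954814, plus strand: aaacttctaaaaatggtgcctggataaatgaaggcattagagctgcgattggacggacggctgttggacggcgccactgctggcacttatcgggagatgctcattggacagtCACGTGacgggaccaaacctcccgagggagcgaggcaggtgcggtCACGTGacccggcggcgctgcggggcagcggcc
BCL2L1, chr20:31723990-31724213, minus strand: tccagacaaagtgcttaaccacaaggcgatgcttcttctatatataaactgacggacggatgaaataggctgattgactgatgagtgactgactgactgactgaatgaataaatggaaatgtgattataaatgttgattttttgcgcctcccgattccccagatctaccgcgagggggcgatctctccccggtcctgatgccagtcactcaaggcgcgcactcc
In the 250 bases before its RefSeq start, BAX had 4 E-boxes, of which the 2 in the printed run lie upstream of the gene in the table. The windows of BCL2L1, CYCS and PARP1 had 0. Of 35116 such windows of annotated promoters, 6.34% held an E-box on either strand. The first of 2 windows of BCL2L1 instead had 2 matches to TATAAA (both strands searched), and the second, inside the gene, had 0. TATAAA was held by 10.7% of windows. GGGCGG, held by 42.6% of windows, had 1 match for BAX, 2 for PARP1 and 0 for BCL2L1 and CYCS. CCAAT, held by 32.0%, had 2 matches each for BAX and CYCS and 0 for BCL2L1 and PARP1. These matches describe the letters only.

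BAX (ENSG00000087088, chromosome 19, 48954815 to 48961798, GRCh38) encodes the pore former. Untreated AGS-1 had 143 FPKM (5617 fragments, interval 139 to 146) and ISO-treated AGS-1 had 103 FPKM (4263 fragments, interval 100.2 to 106). Untreated HGC-27 had 20.7 FPKM (1084 fragments, interval 19.5 to 22.0) and ISO-treated HGC-27 had 25.8 FPKM (1139 fragments, interval 24.3 to 27.3). BAX mRNA was thus lower with ISO in AGS-1 and higher with ISO in HGC-27, and no intervals of these 4 libraries overlapped. The level with ISO was 0.725 times the control in AGS-1 (interval 0.696 to 0.754) and 1.24 times the control in HGC-27 (interval 1.14 to 1.35). As log2 ratios of FPKM + 1 these were −0.46 and 0.30, neither of them a 2-fold change. Relative to the median of all genes BAX stood at −0.17 in AGS-1, where 33.2% of genes had a lower ratio, and at 0.41 in HGC-27, where 89.9% did. With upper-quartile scaling the AGS-1 ratio was −0.042, less than its counting error, and the HGC-27 ratio was 0.45. The pattern of a lower level in AGS-1 and a higher level in HGC-27 was shared by 22.2% of all genes.

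BCL2L1 (ENSG00000171552, chromosome 20, 31664452 to 31723989) encodes the anti-apoptotic Bcl-xL as its main protein. Values per gene do not separate its transcripts. Its level was 197 FPKM in untreated AGS-1 (12612 fragments, interval 194 to 201) and 78.1 FPKM in ISO-treated AGS-1 (5234 fragments, interval 76.0 to 80.3). It was 9.33 FPKM in untreated HGC-27 (791 fragments, interval 8.69 to 10.0) and 6.89 FPKM with ISO (494 fragments, interval 6.30 to 7.53). BCL2L1 was lower with ISO in both lines, also with either scaling, and in AGS-1 it moved most of these mRNAs. Without scaling, 56.0% of all genes were lower with ISO in both lines. In HGC-27 the unscaled log2 ratio of BCL2L1 (−0.39) was larger in size than that of BAX (0.30). With either scaling and relative to the median of all genes, the ratio of BAX was the larger. The pseudocount shrinks the ratio of BCL2L1 more than that of BAX, given its lower level in HGC-27. The level with ISO was 0.396 times the control in AGS-1 (interval 0.384 to 0.409) and 0.739 times the control in HGC-27 (interval 0.659 to 0.828). In AGS-1 the log2 ratio of −1.32 passed a 2-fold change, and 60 of the 2897 genes had a lower ratio. This was the 1 member of 4 at least 2-fold lower in AGS-1, where 6.63% of all genes were, and none was in HGC-27, where 0.932% were. None was 2-fold higher, where 0.828% of genes in AGS-1 and 0.552% in HGC-27 were. With upper-quartile scaling the ratio in AGS-1 was −0.90 and no longer passed. Set against the median gene, the ratios were −1.04 for AGS-1 and −0.28 for HGC-27. The genes ABALON and AL117381.1 overlap BCL2L1 on the opposite strand in GENCODE 29, and whether the counting used strand is not given in the sources used here, so their fragments cannot be told apart from those of BCL2L1.

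CYCS (ENSG00000172115, chromosome 7, 25118656 to 25125260) encodes cytochrome c. Untreated AGS-1 had 16.5 FPKM (1457 fragments, interval 15.7 to 17.4) and ISO-treated AGS-1 15.6 FPKM (1444 fragments, interval 14.8 to 16.5). Untreated HGC-27 had 50.7 FPKM (5931 fragments, interval 49.4 to 52.0) and ISO-treated HGC-27 47.4 FPKM (4683 fragments, interval 46.0 to 48.7). The AGS-1 libraries overlapped in their counting intervals, and in HGC-27 the level with ISO lay 6.58% under the control. Neither line showed a change near 2-fold, with log2 ratios of −0.08 and −0.10. Relative to the median of all genes these became 0.21 and 0.0089, and median-of-ratios scaling turned the ratio in AGS-1 to 0.19. GENCODE 29 lists 40 processed copies of CYCS as pseudogenes. They were not analysed here, and their fragments may be mixed with those of CYCS.

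PARP1 (ENSG00000143799, chromosome 1, 226360210 to 226408154) encodes the caspase-3 substrate. Its level was 15.4 FPKM in untreated AGS-1 (4320 fragments, interval 15.0 to 15.9) and 12.7 FPKM in ISO-treated AGS-1 (3718 fragments, interval 12.3 to 13.1). It was 17.7 FPKM in untreated HGC-27 (6562 fragments, interval 17.2 to 18.1) and 18.9 FPKM in ISO-treated HGC-27 (5936 fragments, interval 18.4 to 19.4). PARP1 was lower with ISO in AGS-1 and slightly higher in HGC-27, as BAX was, but by less. The log2 ratio was −0.26 for AGS-1 and 0.09 for HGC-27. Against the median gene PARP1 stood at 0.02 and 0.20, and upper-quartile scaling turned the AGS-1 ratio to 0.13.

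**Figure D1:**
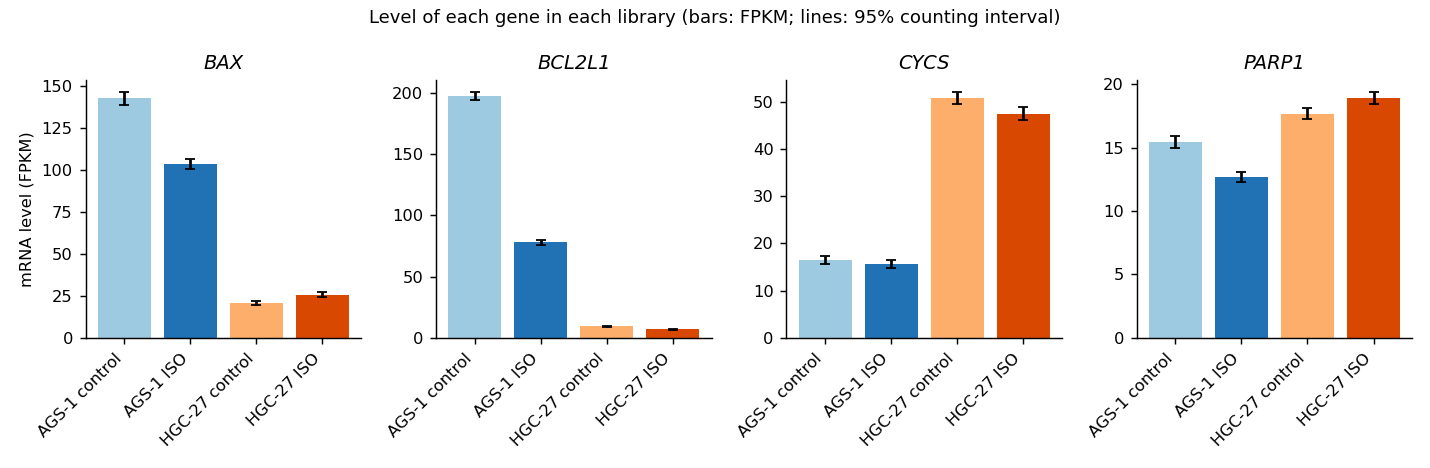
Level of BAX, BCL2L1, CYCS and PARP1 in the 4 libraries, in FPKM on linear axes that differ between genes, with 95% counting intervals and 1 library per bar. BAX and BCL2L1 were highest in the AGS-1 control (143 and 197 FPKM), CYCS was highest in the HGC-27 control (50.7 FPKM), and PARP1 lay between 12.7 and 18.9 FPKM throughout.

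The ratio of BAX to BCL2L1 mRNA sets a pore former against its inhibitor within a library, so the scaling of the library cancels. In AGS-1 it was 0.723 in the control (interval 0.700 to 0.746) and 1.32 with ISO (interval 1.27 to 1.38). In HGC-27 it was 2.22 in the control (interval 2.03 to 2.44) and 3.74 with ISO (interval 3.36 to 4.17). The ratio was higher with ISO in both lines, and it was higher in either HGC-27 library than in either AGS-1 library. It rose 1.83-fold in AGS-1 (interval 1.74 to 1.92) and 1.68-fold in HGC-27 (interval 1.46 to 1.93), and these folds differed by a factor of 1.09, with an interval of 0.937 to 1.26 that includes no difference. With 1 library per condition neither fold has a replicate check. Only 2.07% of all genes in AGS-1 and 15.9% in HGC-27 had a lower log2 ratio than BCL2L1. Most genes of the table, set over BCL2L1, would therefore also have a higher ratio with ISO, and the rise is not particular to BAX.

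The levels behind the rise in ratio differed between the lines. In AGS-1 both mRNAs were lower with ISO, BAX by 27.5% and BCL2L1 by 60.4%. In HGC-27 BAX was higher by a factor of 1.24 and BCL2L1 was lower by 26.1%. The size of the ratio depended on the gene length used, although its change with ISO did not. The table takes 2587 bases for BAX and 4197 for BCL2L1, while the exons in GENCODE 29 sum to 2587 and 3314 bases. With the latter the ratio was 0.571 and 1.04 in AGS-1 and 1.76 and 2.95 in HGC-27. Without division by length it was 0.445 and 0.814 in AGS-1, so that BAX lay under BCL2L1 in both libraries, and 1.37 and 2.31 in HGC-27.

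MCL1, another anti-apoptotic member of the family, gave a different picture. Its level was 310.1 FPKM in untreated and 176 FPKM in ISO-treated AGS-1, and 35.7 and 42.9 FPKM in the HGC-27 pair. The ratio of BAX to MCL1 went from 0.460 to 0.588 in AGS-1, a 1.28-fold rise (interval 1.22 to 1.34). In HGC-27 it was 0.581 in the control and 0.602 with ISO, a fold of 1.04 whose interval of 0.944 to 1.14 includes no change. The pairing with MCL1 was chosen after its values were seen.

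**Figure D2:**
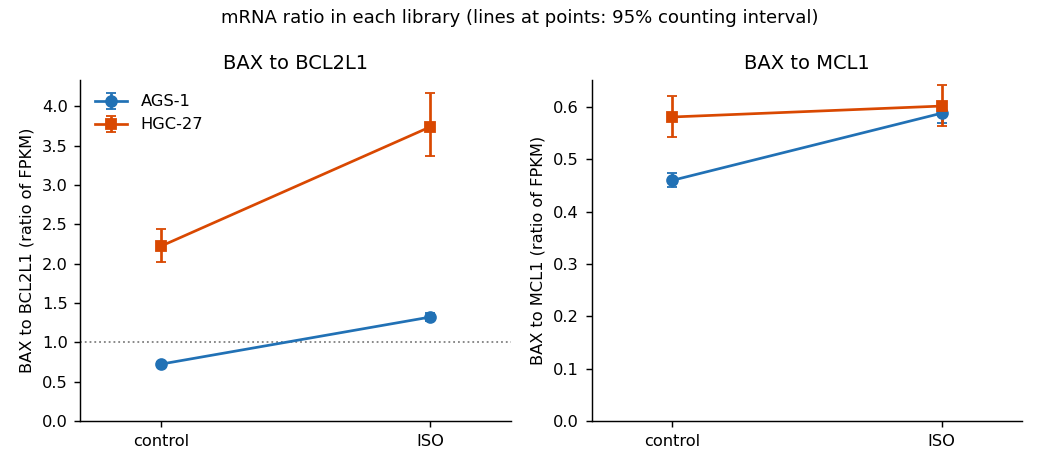
Ratio of BAX to BCL2L1 (left) and of BAX to MCL1 (right) in FPKM, in control and ISO libraries of AGS-1 (circles) and HGC-27 (squares), with 95% counting intervals and a dotted line at 1. The ratio to BCL2L1 rose from 0.723 to 1.32 in AGS-1 and from 2.22 to 3.74 in HGC-27, while the ratio to MCL1 in HGC-27 was 0.581 and 0.602.

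The effect of ISO shared by both lines was tested with limma on log2(FPKM + 1). The cell line was a block, 2883 genes entered and 1 residual degree of freedom was left. None of the 4 mRNAs passed an adjusted p of 0.05, where 0.937% of all genes did (0.832% of all genes with lower values under ISO). BCL2L1 alone had an unadjusted p under 0.05, as 20% of all genes had. BCL2L1 had a shared log2 difference of −0.86 (SE 0.233, unadjusted p 0.00302, Benjamini-Hochberg adjusted p 0.103 by limma), with lower values in both lines. Over the alternatives its adjusted p by limma ranged from 0.0291 to 1.00, and it passed with a pseudocount of 0.1 (adjusted p 0.0388) and when genes under a mean of 10 FPKM were left out (adjusted p 0.0291). BAX, CYCS and PARP1 had shared log2 differences of −0.08, −0.09 and −0.09, with adjusted p by limma of 0.859, 0.815 and 0.821. The sign of these 3 values turned with median-of-ratios and with upper-quartile scaling. The responses of the lines cannot be tested against each other, since an interaction would leave no residual degree of freedom. By counting error alone, the log2 change was higher in HGC-27 than in AGS-1 by 0.78 for BAX (interval 0.65 to 0.91), by 0.90 for BCL2L1 (0.73 to 1.07) and by 0.38 for PARP1 (0.30 to 0.46). For CYCS the difference was −0.02 (interval −0.14 to 0.10).

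**Figure D3:**
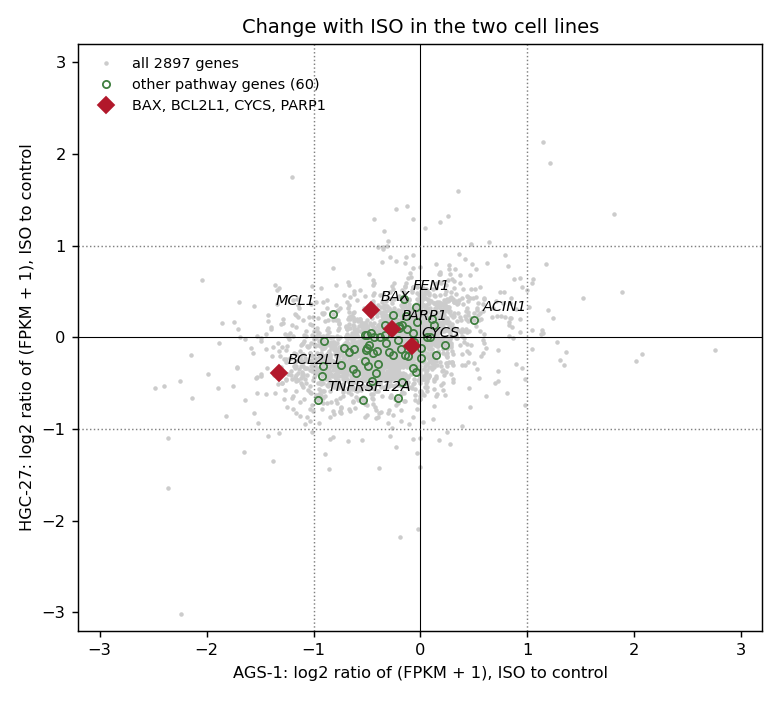
Log2 ratio of FPKM + 1 between ISO and control in AGS-1 (x axis) and HGC-27 (y axis) for all 2897 genes (grey), the other 60 genes of the apoptosis lists (open circles) and BAX, BCL2L1, CYCS and PARP1 (diamonds). Dotted lines mark a 2-fold change. Of the named mRNAs BCL2L1 alone lies past it, in AGS-1 (−1.32), and BAX lies in the quadrant lower in AGS-1 (−0.46) and higher in HGC-27 (0.30).

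For BAX, BCL2L1 and CYCS the cell lines differed more than the treatments did. BAX was 6.87-fold higher in AGS-1 than in HGC-27 among controls (interval 6.44 to 7.34) and 4.004-fold higher with ISO (3.75 to 4.28). BCL2L1 was 21.1-fold higher in AGS-1 among controls (19.7 to 22.7) and 11.3-fold higher with ISO (10.3 to 12.5). CYCS went the other way, and was 3.07-fold higher in HGC-27 among controls (2.90 to 3.25) and 3.03-fold higher with ISO (2.86 to 3.22). PARP1 was closest between the lines, at 1.15-fold higher in HGC-27 among controls (1.10 to 1.19) and 1.49-fold with ISO (1.43 to 1.56). In the same limma fit, with 2 libraries per line, the difference between the lines passed for BAX (log2 difference 2.34, SE 0.234, adjusted p 2.18e-06). It also passed for BCL2L1 (3.79, SE 0.233, adjusted p 1.49e-08 by limma) and, with higher values in HGC-27, for CYCS (−1.55, SE 0.188, adjusted p 1.38e-05 by limma). PARP1 did not pass (−0.36, SE 0.199, adjusted p 0.140 by limma). These 3 of 4 stand against 56.9% of all genes that differed between the lines in that test, 32.2% with higher values in AGS-1 and 24.7% with higher values in HGC-27. At an unadjusted p under 0.05 the same 3 mRNAs and 60.6% of all genes differed.

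Within a library, BCL2L1 and BAX ranked higher among the listed genes in AGS-1 than in HGC-27. In the AGS-1 control 93.8% of the genes had a lower FPKM than BCL2L1 and 90.5% a lower FPKM than BAX. With ISO these shares were 87.8% and 91.3%. In the HGC-27 control 9.73% lay under BCL2L1 and 35.2% under BAX, and with ISO 8.11% and 50.6%. These ranks hold among the 2897 genes of the deposited table only. How those genes were selected is not given, and its part in the ranks was not tested. CYCS ranked above 17.3% of genes in the AGS-1 control and 76.2% in the HGC-27 control. In AGS-1 the FPKM of CYCS was slightly above that of PARP1 (16.5 against 15.4 in the control), but with GENCODE exon lengths PARP1 came out higher (39.6 against 21.5), since the table takes 18399 bases for PARP1 and the GENCODE exons sum to 7169.

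The other genes of the pathway were read from 14 lists, ordered by role, which held 129 genes. The 64 of them with a row in the deposited table were analysed, BAX, BCL2L1, CYCS and PARP1 included. Of the other 60, none changed 2-fold in either line, where 7.46% of all genes in AGS-1 and 1.48% in HGC-27 did. Their log2 ratios lay between −0.96 and 0.50 in AGS-1 and between −0.69 and 0.42 in HGC-27. The median over the 64 genes was −0.31 (AGS-1) and −0.11 (HGC-27), close to the medians of all genes (−0.29 and −0.11). None of the 64 passed the limma test of a shared change, and 8 had an unadjusted p under 0.05, all lower with ISO in both lines, as 20% of all genes had in either direction. Between the lines 19 of the 64 (29.7%) were higher in AGS-1 by the limma test, where 32.2% of all genes were, and 10 (15.6%) were higher in HGC-27, where 24.7% of all genes were.

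Among the pore formers, BAK1, which acts alongside BAX, had 28.1 and 20.9 FPKM in AGS-1 and 20.4 and 18.3 FPKM in HGC-27 (control, then ISO), with log2 ratios of −0.41 and −0.15. Unlike BAX, it was thus lower with ISO in either line. Of 10 BH3-only proteins, which activate BAX or block its inhibitors, 3 were analysed. BBC3 (PUMA) was at 108 and 75.9 FPKM in AGS-1 and at 2.9999 and 2.69 FPKM in HGC-27, PMAIP1 (NOXA) at 29.8 and 30.0 and at 38.5 and 35.5 FPKM, and BNIP3L at 12.4 and 13.1 and at 12.0 and 12.0 FPKM. None of them changed near 2-fold. BBC3 shared with BAX and BCL2L1 the higher level in AGS-1 (log2 difference 4.57, adjusted p 4.93e-10 by limma).

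The anti-apoptotic BCL2L1 and MCL1, 2 of 5 listed genes, had the lowest median of any list in AGS-1 (−1.07, with −1.32 and −0.82, and a median of −0.79 with median-of-ratios and −0.65 with upper-quartile scaling). In HGC-27 they went apart, with −0.39 and 0.26. For BIRC5, which encodes survivin and was the only inhibitor of apoptosis protein analysed of 5, the log2 ratios were 0.23 (AGS-1) and −0.09 (HGC-27). The 7 listed caspases, APAF1 and the other listed released mitochondrial proteins besides CYCS had no row in the deposited table. BCL2, whose protein the study set against Bax, had none either. ACIN1, which encodes a caspase-3 substrate linked to chromatin condensation, had 27.4 and 39.2 FPKM in AGS-1 and 27.0 and 31.0 FPKM in HGC-27. Its log2 ratios of 0.50 and 0.19 made it the highest of the list genes in AGS-1, but the shared change did not pass (adjusted p 0.327 by limma).

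Of 8 genes for channels and carriers of the mitochondrial membranes, 7 were analysed. Their median was −0.38 for AGS-1 (0.04 with upper-quartile scaling) and 0.0038 for HGC-27. VDAC2, an outer membrane channel that binds BAK1, had log2 ratios of −0.60 and −0.39, and the ADP/ATP carrier SLC25A6 −0.63 and −0.34. Binding partners and regulators of BCL-2 family proteins were analysed for 15 of 20 genes, and all 15 had a ratio under 0 in AGS-1, where 78.6% of all genes did (median −0.40, from −0.92 to −0.04, and 0.02 with upper-quartile scaling). In HGC-27 11 of them did (median −0.14, and 0.0086 with that scaling), where 64.2% of all genes did. HK2, a hexokinase that docks on the outer membrane, was lowest in AGS-1 (−0.92). PHB, a prohibitin of the inner membrane, was lowest in HGC-27 (−0.33). BAG3, a cochaperone that stabilises BCL-2 proteins, was highest there (0.24). FIS1, the only gene of mitochondrial fission or fusion analysed of 6, had −0.66 and −0.16.

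BAX is also a known target of p53, and 4 of 15 genes of the p53 list were analysed. All 4 had ratios between −0.21 and −0.06 in AGS-1 and between −0.67 and 0.10 in HGC-27, and their AGS-1 median of −0.15 turned to 0.13 with median-of-ratios and 0.27 with upper-quartile scaling. CDKN1A, the p21 cell cycle inhibitor, had 196 and 179 FPKM in AGS-1 and 16.2 and 17.3 FPKM in HGC-27. GDF15, a secreted stress factor, had 1420 and 1226 FPKM in AGS-1 and 71.1 and 44.5 FPKM in HGC-27. As with BAX, all 4 were higher in AGS-1 by the limma test, where 32.2% of all genes were, with log2 differences of 3.41 for CDKN1A (adjusted p 1.63e-08 by limma), 4.53 for GDF15 (adjusted p 1.27e-08 by limma), 1.64 for AEN and 0.98 for TNFRSF10B. Of the 11 genes listed for death receptor signaling, the other route to caspase-3, 5 were analysed. Their median was −0.45 for AGS-1 (−0.18 with median-of-ratios and −0.037 with upper-quartile scaling) and −0.42 for HGC-27, and TNFRSF12A, the TWEAK receptor, had the lowest ratio of the 60 genes in AGS-1 (268 to 137 FPKM, log2 ratio −0.96, and −0.69 in HGC-27). Its shared log2 difference of −0.82 had an unadjusted p of 0.00296 and an adjusted p of 0.103 by limma.

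For the partners of PARP1 in DNA repair, 8 of 13 genes were analysed. Their median was −0.18 for AGS-1 (0.09 with median-of-ratios and 0.23 with upper-quartile scaling) and 0.13 for HGC-27, and the latter was 0.23 above the median of all genes, beside 0.20 for PARP1 itself. FEN1, a flap endonuclease, was the highest there (61.5 to 82.7 FPKM, log2 ratio 0.42, and −0.16 in AGS-1), and RPA2, a single-strand binding protein, the lowest (−0.38). Cytochrome c takes electrons from complex III to complex IV, and 15 of 18 listed genes for these complexes and for the attachment of its heme were analysed. Their medians, −0.29 for AGS-1 and −0.13 for HGC-27 (0.12 and 0.02 with upper-quartile scaling), were near those of all genes, and CYCS stood at −0.08 and −0.10. COX4I1 was lowest in AGS-1 (−0.62), COX8A lowest in HGC-27 (−0.69), COX7B highest in AGS-1 (0.15) and COX7A2 highest in HGC-27 (0.21). By the limma test between the lines 3 of the 15 were higher in HGC-27, where 24.7% of all genes were, 1 (COX6C) was higher in AGS-1 (log2 difference 0.73, adjusted p 0.00796), and 11 did not pass. UQCRH, COX7B and COX8A were those higher in HGC-27, as CYCS was (log2 differences −0.98, −1.35 and −1.30, adjusted p 0.00193, 7.14e-05 and 0.000467 by limma).

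**Figure D4:**
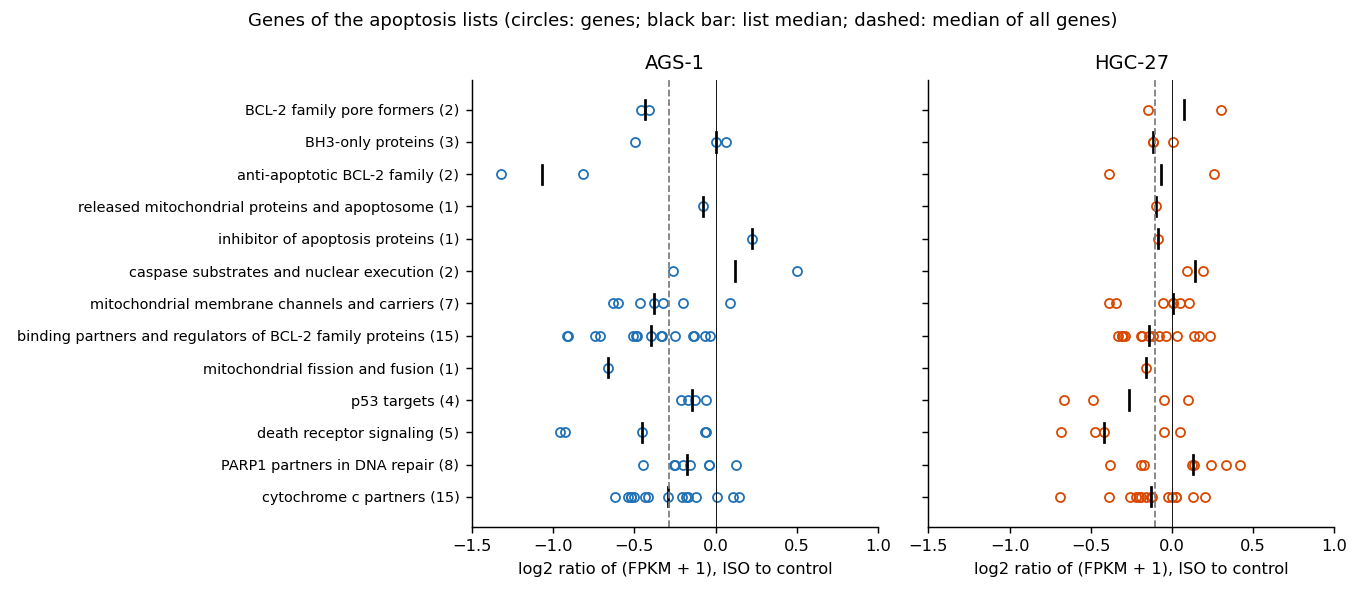
Log2 ratio of FPKM + 1 between ISO and control for each analysed gene of the lists (circles) in AGS-1 (left) and HGC-27 (right), with the number of genes in brackets, list medians as black bars and the median of all genes as a dashed line. The anti-apoptotic pair BCL2L1 and MCL1 lies lowest in AGS-1 (median −1.07), and no gene but BCL2L1 passes a 2-fold change.

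Likeness of pattern was measured as the Euclidean distance between log2(FPKM + 1) profiles over the 4 libraries, each centred on its mean, among 2882 genes. The nearest to BAX were SKIL (distance 0.187), IRF3 (0.217) and FURIN (0.219), where the median gene lay at 2.41. SKIL had 50.1 and 42.1 FPKM in AGS-1 and 7.12 and 8.37 FPKM in HGC-27. The nearest to BCL2L1 were S100A16 (0.121), BCAM (0.156) and KRT80 (0.225), against a median of 3.85. S100A16 had 182 and 80.5 FPKM in AGS-1 and 9.37 and 6.58 FPKM in HGC-27. For CYCS they were SLC4A2 (0.0503), GET3 (0.104) and ECSIT (0.107), against 1.73, and for PARP1 ZNF622 (0.0543), APEX1 (0.0581) and SPINDOC (0.0590), against 0.805. APEX1, an endonuclease of base excision repair, had 85.1 and 74.0 FPKM in AGS-1 and 100.01 and 109 FPKM in HGC-27.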

How the data were processed

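The samples were 4 RNA-seq libraries made with an mRNA kit. The authors deposited FPKM values for 2897 genes with gene lengths and coordinates. List genes and markers without a row there could not be measured. Their processing notes name CASAVA 1.8, HISAT2 and GRCh38. The counting tool, the annotation and how these genes were selected are not given in the sources used here. Fragments and library totals were recovered from FPKM times gene length (tolerance 0.05). A count of 3 fragments made up between 1.49e-05% and 1.97e-05% of a library.

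Log2 ratios used a pseudocount of 1 FPKM, which understates changes of low genes, and 2-fold as the threshold. Intervals for 1 gene are exact Poisson or binomial, and those for changes of ratios are normal on the log scale. The same-line libraries formed the blocks. The limma test (lmFit and eBayes with trend, Benjamini-Hochberg over genes that averaged 1 FPKM or more) used limma 3.58.1 in R 4.3.3, and p-values rest on the spread borrowed across genes. On simulated data for the shared ISO effect (2883 genes, 200 changed) it recovered 100% of 2-fold and 100% of 4-fold changes, with 1.96% false calls. The simulation gave both lines the same change, a low fixed spread and no shift of a whole library. It therefore cannot show how often the test misses a change in these data. For example, CITED4 did not pass with a shared log2 difference of −1.52 (adjusted p 0.0549 by limma). No test was run within a line.

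Members and lists were chosen with earlier results of these data known. Named genes are the members, list genes past a threshold or at either end of a list, and the 3 nearest profiles. PMAIP1, AEN, UQCRH and COX6C fall outside this rule and were picked with their values in view, as were the ratio pairs. GENCODE 29 and RefSeq promoters served for lengths, overlaps and sequences. Other software was scipy 1.17.1, numpy 2.4.6 and pandas 2.3.3 under Python 3.11.15, and matplotlib 3.10.9 for plots. Alternatives were other pseudocounts (0.1 and 5), scalings, filters, no trend, no block and, added after the data were seen, GENCODE lengths.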

Additional observations from a re-analysis of the deposited data

Results flagged for a closer look

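In 7 of the 32 list genes named by rule, the level moved one way in AGS-1 and the other way in HGC-27, each beyond its 95% counting interval. In 6 of these the level was lower in AGS-1 and higher in HGC-27, which 22.2% of all genes were before any regard to counting error, and the 32 include genes named as the ends of their lists. Among list genes outside the 32, PCNA, YWHAG, APEX1, COX6B1 and SLC25A5 were also lower in AGS-1 and higher in HGC-27, beyond their counting intervals. Their log2 ratios were −0.26 and 0.24, −0.33 and 0.14, −0.20 and 0.12, −0.17 and 0.13, and −0.47 and 0.05. The difference between the lines was not tested, since each condition had 1 library. The values are log2 ratios of FPKM + 1 between ISO and control, and the differences are HGC-27 minus AGS-1. BAX differed by 0.76 (−0.46 and 0.30) and kept opposite signs with median-of-ratios (−0.18 and 0.36) and upper-quartile scaling (−0.04 and 0.45). That −0.04 was less than its counting error, so with upper-quartile scaling BAX did not meet the rule in AGS-1. MCL1 differed by 1.07 (−0.82 and 0.26) and kept opposite signs as well (−0.54 and 0.32, and −0.40 and 0.40). FEN1 differed by 0.58, PARP1 by 0.36 and SLC25A3, the mitochondrial phosphate carrier, by 0.31. TMBIM6, an endoplasmic reticulum protein that counters cell death induced by BAX, differed by 0.20. With upper-quartile scaling both values of each of these 4 lay above 0. BIRC5 went the other way, with a difference of −0.31 (0.23 and −0.09), and with upper-quartile scaling its values were 0.62 and 0.06.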

How the results depend on the processing

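The pseudocounts 0.1 and 5 turned no sign of the log2 ratios of BAX, BCL2L1, CYCS and PARP1 within a line, and 5 moved 3 of them out of their counting intervals, BCL2L1 to −1.28 (AGS-1) and −0.27 (HGC-27) and PARP1 to −0.21 (AGS-1). Scaling moved them as well. In AGS-1, median-of-ratios scaling gave −0.18 for BAX, −1.05 for BCL2L1, 0.19 for CYCS and −0.0042 for PARP1, and upper-quartile scaling −0.042, −0.90, 0.32 and 0.13, so that 0 of these genes and 0 list genes changed 2-fold. In HGC-27 they gave −0.033 and 0.052 for CYCS and 0.15 and 0.24 for PARP1, and upper-quartile scaling 0.45 for BAX. Among 13 list medians, upper-quartile scaling turned the sign of 6 in each line, and median-of-ratios scaling of 3 in AGS-1.

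In the limma test of the shared change, median-of-ratios scaling gave 0.090 for BAX, 0.077 for CYCS and 0.075 for PARP1, and upper-quartile scaling 0.20, 0.19 and 0.18. BCL2L1 passed with a pseudocount of 0.1 (−0.88) and with a mean of at least 10 FPKM (−0.86), as 1 of 4 in each. All genes called numbered 27, and 107 with a pseudocount of 0.1, 12 with 5, 104 with a mean of at least 10 FPKM, 6 without a filter, 6 without trend, and 0 with either scaling or with no replicate block for the cell line. Without treatment in the model, BAX, BCL2L1 and CYCS again passed for the lines and PARP1 did not. PARP1 passed for the lines with upper-quartile scaling (−0.57). Leaving out a library leaves no residual degree of freedom, so this was not run.

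The ratio of BAX to BCL2L1 in the AGS-1 control, AGS-1 with ISO, the HGC-27 control and HGC-27 with ISO was 0.445, 0.814, 1.37 and 2.31 without division by length, 0.571, 1.04, 1.76 and 2.95 with GENCODE exon lengths, and 0.856, 1.57, 2.63 and 4.43 with the longest coding transcripts. A pseudocount of 1 left it within its counting interval.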

Other observations

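Of 8 ratios of a pro-apoptotic to an anti-apoptotic mRNA (BAX, BAK1, BBC3 and PMAIP1, each over BCL2L1 and over MCL1), all 8 were higher with ISO in AGS-1, beyond their counting intervals. In AGS-1 only 2.07% of all genes had a lower log2 ratio than BCL2L1. MCL1 (−0.82) also lay under the AGS-1 median of all genes (−0.29). Most genes of the table, set over BCL2L1 or over MCL1, would thus also give a higher ratio there. BNIP3L, the other BH3-only gene analysed, was not paired. In AGS-1 the folds ran from 1.25 for BBC3 to MCL1 (interval 1.19 to 1.304) to 2.53 for PMAIP1 to BCL2L1 (interval 2.31 to 2.78). In HGC-27 the 4 ratios over BCL2L1 had folds of 1.68 for BAX, 1.21 for BAK1 (interval 1.05 to 1.41), 1.21 for BBC3 (interval 0.9504 to 1.54, which includes no change) and 1.25 for PMAIP1 (interval 1.09 to 1.43). Over MCL1 the folds in HGC-27 were 1.04 for BAX, 0.748 for BAK1 (interval 0.672 to 0.832), 0.746 for BBC3 (0.599 to 0.928) and 0.768 for PMAIP1 (0.707 to 0.834). The ratios share their denominators within a library, so they are not independent of each other, and 1 library per condition gives them no replicate check.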
